A study of Mus musculus with 4 samples.

Results

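Potassium channel genes were examined in ATAC-seq peak lists of the mouse aorta. All protein-coding genes of GENCODE vM21 with a symbol starting Kcn were taken, which gave 94 of 21938 protein-coding genes on the main chromosomes. A gene was counted as having a peak when a called region of open chromatin overlapped its body or the 10 kb on either side, and as having a promoter peak when a called region lay within 1 kb of one of its transcription start sites (TSS).

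ATAC-seq marks open chromatin by the insertion of a transposase into accessible DNA. Nuclei came from the aorta at 60 days of age (P60) and went through a droplet kit for single nuclei, but the signal was analyzed in aggregate and cell types were not separated. Control mice were Col3a1+/+, and VEDS mice, a model of vascular Ehlers-Danlos syndrome, were heterozygous for the allele (Col3a1G938D/+). The treatment label reads None for control and Disease for VEDS, and no drug is named for either. There were 4 libraries, 1 for each combination of genotype and sex, and each pooled aortic tissue of 2 mice. In aggregate signal, fewer cells of a type and a less open site in each cell cannot be told apart.

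Potassium channels let potassium leave the cell along its gradient and make the membrane potential more negative. In arterial smooth muscle this closes voltage-gated calcium channels and relaxes the vessel wall, and channels of the calcium-activated, voltage-gated, ATP-sensitive, inward rectifier and two-pore classes share the task. In neurons other members of the same families shape the action potential and set firing rate.

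The libraries differed widely in yield. The control female and VEDS male lists were long, with 21176 and 41444 peaks, and the control male and VEDS female lists were short, with 1236 and 504. The median number of fragments stacked at a peak summit (summit height) was 14 and 22 in the long lists and 7 and 6 in the short ones, in the same order. Mostly masked peaks, in which repeats covered over 50% of the bases, made up 68.8% and 27.4% of the short lists and 3.90% and 5.09% of the long ones. The long lists differ in genotype, in sex and in depth, and the parts of these in a difference between them cannot be told apart. With 2 libraries per genotype, a two-sided exact permutation test cannot go below p = 0.333, and the genotypes were not tested against each other. All 5 smooth muscle markers (*Acta2*, *Myh11*, *Tagln*, *Cnn1* and *Smtn*) had a promoter peak in both long lists, against 44.7% of all coding genes. Among 5 markers each, a peak in or near the gene in both long lists was found for 2 endothelial, 2 fibroblast, 2 adipocyte, 2 immune, 2 cardiac or skeletal muscle, 1 Schwann cell and 0 neuron markers. The share over all coding genes was 58.5%. Without peaks at the TSS of another coding gene the counts were 2, 2, 1, 0, 1, 0 and 0 in the same order, where that share was 43.9%. In the VEDS male list 4 of the 5 neuron markers (*Elavl3*, *Rbfox3*, *Snap25* and *Syn1*) and all 5 endothelial markers had a peak in or near the gene. There the share over all coding genes was 69.4%. The share of the channel peaks that came from each cell type was not tested.

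Sequences are shown for smooth muscle channels from intronic regions open in both long lists, with a match to a searched motif. *Kcnma1* encodes the pore of the large-conductance calcium-activated (BK) channel, and 12 of its regions were shared by the lists. The following stretches lie under 3 of these shared peaks and under shared intronic peaks of *Kcnq5* and *Kcnq1*, voltage-gated (Kv7) channels of arterial muscle. Each is shown 5′ to 3′ on the plus strand of GRCm38 (mm10), and the capitals mark a match to the consensus of MEF2, a muscle transcription factor, of AP-1 (TGAGTCA or TGACTCA) or of TEAD (GGAATG, read as CATTCC on the opposite strand), searched on both strands.
*Kcnma1* intron, chr14:23627061-23627150, MEF2: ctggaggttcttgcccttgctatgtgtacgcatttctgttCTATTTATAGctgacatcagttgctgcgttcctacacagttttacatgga
*Kcnma1* intron, chr14:23772787-23772873, AP-1: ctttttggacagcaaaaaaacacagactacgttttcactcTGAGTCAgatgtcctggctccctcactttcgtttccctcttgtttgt
*Kcnma1* intron, chr14:23816933-23817018, TEAD: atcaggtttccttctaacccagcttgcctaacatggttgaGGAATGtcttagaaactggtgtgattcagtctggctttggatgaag
*Kcnq5* intron, chr1:21829975-21830064, MEF2: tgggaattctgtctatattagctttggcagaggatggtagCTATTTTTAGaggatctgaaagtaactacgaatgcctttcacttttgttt
*Kcnq5* intron, chr1:21830127-21830213, AP-1: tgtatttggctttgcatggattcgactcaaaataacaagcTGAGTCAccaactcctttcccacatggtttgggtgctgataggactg
*Kcnq1* intron, chr7:143389421-143389506, TEAD: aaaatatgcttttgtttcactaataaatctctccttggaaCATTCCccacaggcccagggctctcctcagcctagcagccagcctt

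Promoters are shown for a different reason, the density of CpG dinucleotides, which is capitalized. *Kcnmb1*, the BK channel β1 subunit of smooth muscle, and *Kcnj8*, the pore of the vascular ATP-sensitive channel, had promoter peaks in both long lists. *Kcnd2*, a voltage-gated channel of neuronal dendrites, and *Kcnmb4*, the neuronal BK channel β4 subunit, had no peak in either. The 150 bases upstream of each TSS are printed 5′ to 3′ on the strand of the gene (GRCm38).
*Kcnmb1*, chr11:33962863-33963012, plus strand: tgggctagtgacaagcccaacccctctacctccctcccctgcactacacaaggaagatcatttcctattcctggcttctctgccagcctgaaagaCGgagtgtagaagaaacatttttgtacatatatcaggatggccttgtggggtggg
*Kcnj8*, chr6:142571615-142571764, minus strand: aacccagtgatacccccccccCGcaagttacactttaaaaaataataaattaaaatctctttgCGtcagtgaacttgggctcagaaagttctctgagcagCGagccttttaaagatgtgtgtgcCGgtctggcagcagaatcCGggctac
*Kcnd2*, chr6:21215353-21215502, plus strand: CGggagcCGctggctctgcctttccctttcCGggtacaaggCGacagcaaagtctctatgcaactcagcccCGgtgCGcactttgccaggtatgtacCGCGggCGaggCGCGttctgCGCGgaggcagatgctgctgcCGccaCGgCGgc
*Kcnmb4*, chr10:116473879-116474028, minus strand: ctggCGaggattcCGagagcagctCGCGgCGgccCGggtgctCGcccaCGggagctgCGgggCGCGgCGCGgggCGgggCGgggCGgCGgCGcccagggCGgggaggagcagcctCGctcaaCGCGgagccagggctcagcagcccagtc

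Most potassium channel genes had a peak in a long list and almost none in a short one. In the control female library 44 of the 94 genes (46.8%) had a peak in the body or within 10 kb, against 58.8% of all protein-coding genes. In the VEDS male library the count was 66 (70.2%), against 69.4% of all. In the control male library it was 4 (background 3.48%), and in the VEDS female library it was 0 (background 2.41%). Both long lists held a peak at 42 genes (44.7%), where the background was 58.5%. A further 24 genes (25.5%) had one in the VEDS male list only and 2, *Kcnh8* and *Kcnj5*, in the control female list only. In either list 26 genes (27.7%) had none. Of all 21938 coding genes, 15230 had a peak in the VEDS male list, 12895 in the control female list and 12837 in both. With the VEDS male list cut to its 21176 strongest peaks, 45 genes had a peak in that list and 40 in both. Merging the libraries of a genotype gave 45 genes for control and 66 for VEDS. The share of all coding genes was not recomputed for the cut list or for the merged libraries. No peak means that none was called at the depth of that library.

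Promoter peaks were scarcer. A promoter peak was called at 12 channel genes (12.8%) in the control female library, against 44.9% of all coding genes, and at 29 (30.9%) in the VEDS male library, against 55.5%. Neither short list had one at any member (background 1.34% in control male and 1.37% in VEDS female). In both long lists 11 channel genes (11.7%) had a promoter peak, against 44.7% of all coding genes. Among them were *Kcnj2*, *Kcnj8*, *Kcnk3* and *Kcnmb1* of the smooth muscle list, *Kcnn3* of the endothelial list, *Kcnn1* of the neuronal list, *Kcnh2* of the striated muscle list, and *Kcnab2*, *Kcnab3* and *Kcnn2*, which are on none. The peak of *Kcnab2*, an auxiliary β subunit, also lay within 1 kb of a TSS of *Nphp4*, and that of *Kcnh2* lay at an internal start 21.8 kb downstream of the principal TSS. The peak that the lists shared at *Kcnn2* (SK2) also lay at an internal start, with 5 fragments in control female and 11 in VEDS male. The 18 genes (19.1%) with a promoter peak in the VEDS male list alone had a highest promoter summit of 8 to 31 fragments (median 11). The 11 genes with one in both lists had 16 to 55 (median 40) in the same library. Of all 21938 coding genes, 12176 had a promoter peak in the VEDS male list and 9797 in both long lists.

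Part of the signal near channel genes lay at the TSS of other coding genes, in the case of *Kcnab2* at its own promoter as well. For 15 of the 42 genes with a peak in both long lists, at least 1 of the lists held no peak there other than those within 1 kb of a TSS of another coding gene. With such peaks set aside 27 genes (28.7%) had a peak in both long lists, against a background of 43.9%. They included *Kcna2*, *Kcnab1*, *Kcnab3*, *Kcnd3*, *Kcng2*, *Kcnh1*, *Kcnh2*, *Kcnip1*, *Kcnip4*, *Kcnj2*, *Kcnj6*, *Kcnj8*, *Kcnj12*, *Kcnj15*, *Kcnk2*, *Kcnk3*, *Kcnk16*, *Kcnma1*, *Kcnmb1*, *Kcnn1*, *Kcnn2*, *Kcnn3*, *Kcnn4*, *Kcnq1* and *Kcnq5*. The strongest peaks by −log10 q, the significance given by the peak caller, were all of this kind. In the VEDS male list the 5 highest were at *Kcnip2* (94.0, at *Mgea5*), *Kcnh4* (92.2, at *Rab5c*), *Kcnj14* (88.2, at *Cyth2*), *Kcnn1* (79.4, at *Arrdc2*) and *Kcna7* (69.0, at *Snrnp70*). In the control female list the 5 highest were at *Kcna7* (40.7), *Kcnip2* (38.4), *Kcnj14* (37.6), *Kcnk6* (37.3, at *Yif1b*) and *Kcnn1* (32.6). All of these peaks lay upstream or downstream of the channel gene and none at its own TSS.

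Channels were also grouped by where they are known to act. Of 12 channels known from arterial smooth muscle, 9 (75%) had a peak in both long lists, where the background was 58.5%, and 12 had one in the VEDS male list, where it was 69.4%. Of 20 channels known mainly from neurons, 6 (30%) had a peak in both and 8 (40%) in VEDS male. At −log10 q of at least 10 the counts in both lists were 4 of 12 and 4 of 20, and in VEDS male alone 10 of 12 and 6 of 20. Of these 4 neuronal genes, *Kcnh3* and *Kcnj9* had peaks only at the TSS of another coding gene. The share of all coding genes was not computed at this cutoff. Promoter peaks in both lists were called at 5 of 12 smooth muscle channels (41.7%) and at 1 of 20 neuronal channels (5%), against a background of 44.7%. Without peaks at the TSS of other coding genes, 9 smooth muscle and 4 neuronal genes had a peak in both lists. Cutting the VEDS male list to its 21176 strongest peaks left 9 smooth muscle and 6 neuronal channels with a peak in that library, and 5 and 1 with a promoter peak. The median gene length was 44.8 kb on the smooth muscle list, 55.3 kb on the neuronal list and 17.4 kb over all coding genes, and the part of length in these counts was not tested. The lists were drawn from textbook knowledge with earlier results of these data known, and their counts were not tested.

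**Figure D1:**
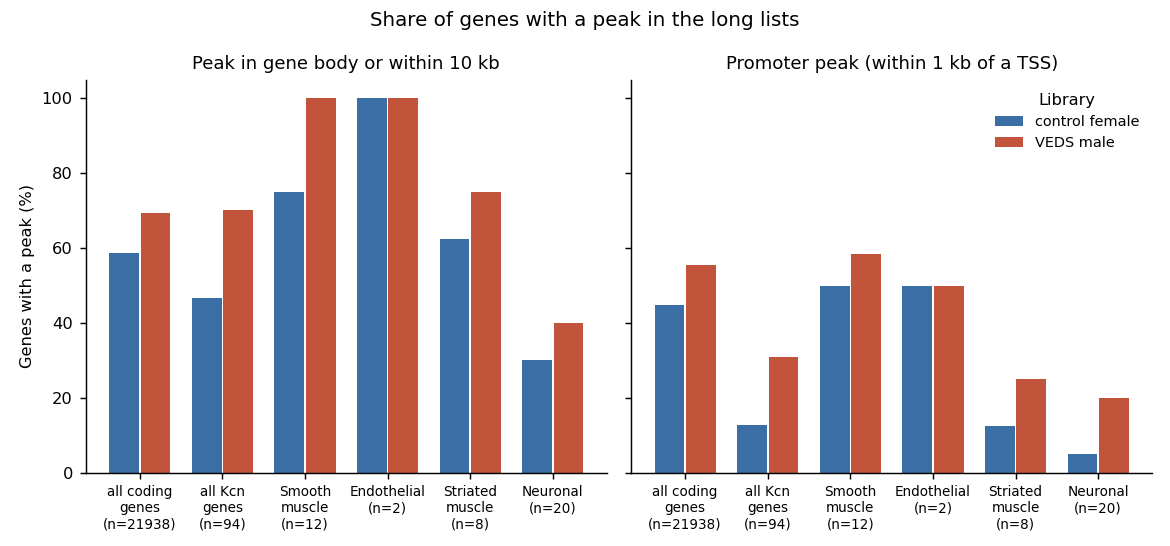
Share of genes (%) with a peak in the gene body or within 10 kb (left) and with a promoter peak (right) in both long lists (blue, control female, and red, VEDS male), for all coding genes, all Kcn genes and 4 role lists. The neuronal list lies below all coding genes in both panels (30% and 40% against 58.8% and 69.4% on the left). The smooth muscle list is at 75% and 100% on the left, and at 50% and 58.3% on the right, near the 44.9% and 55.5% of all coding genes.

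The BK channel had the largest number of peaks. *Kcnma1* (ENSMUSG00000063142.15, chr14:23289431-24014491, minus strand) had 13 peaks in the control female list and 25 in the VEDS male list, more than any other potassium channel gene in each, and none in the short lists. All lay in introns, from 43.5 to 377 kb downstream of the principal TSS in control female and from 43.6 to 428 kb in VEDS male, and no promoter peak was called. Of the 13 control female peaks 12 overlapped a VEDS male peak, and the 5 strongest VEDS male peaks were all shared.

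The strongest *Kcnma1* region in the VEDS male list (chr14:23816884-23817280, 187 kb from the TSS, −log10 q 47.3) rose to 58 fragments at its summit and 15 in control female. The strongest in the control female list (chr14:23882016-23882478, 122 kb from the TSS) had 18 fragments there and 58 in VEDS male. Another shared region (chr14:23772747-23772955, 231 kb from the TSS) had 17 and 57 fragments and holds the AP-1 match shown above. Summit heights ran from 7 to 18 in control female and from 10 to 58 in VEDS male. In each list 3 shared peaks fell in a cluster 229 to 232 kb from the TSS. Among the 12 shared regions, 2 had a MEF2 match, 1 an AP-1 match, 3 a TEAD match and 0 a match to the CArG box, the element bound by serum response factor, in the 300 bases around the VEDS male summit. The shares over all VEDS male peaks in such windows were 5.79% for MEF2, 11.6% for AP-1, 19.0% for TEAD and 3.09% for CArG.

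The auxiliary β subunits of the BK channel differed among themselves. *Kcnmb1* (chr11:33963013-33973641), whose subunit raises calcium sensitivity in smooth muscle, had 1 promoter peak in each long list. It was 11 fragments high in control female (−log10 q 5.30) and 55 in VEDS male (−log10 q 39.97), where 2 further peaks lay downstream. *Kcnmb2* had 1 peak in VEDS male, 99.3% masked, and *Kcnmb3* had 2 upstream peaks of 16 and 19 fragments in VEDS male. Neither had one in control female, and the neuronal *Kcnmb4* had no peak in any library. *Kcnmb1* lies on the opposite strand within an intron of *Kcnip1*, a neuronal channel-interacting protein, so that its promoter peak also counted as the strongest of *Kcnip1*. No BK γ subunit gene (*Lrrc26*, *Lrrc38*, *Lrrc52* or *Lrrc55*) had a peak in any library.

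The Kv7 genes of arterial muscle *Kcnq1* and *Kcnq5* had peaks in both long lists. *Kcnq1* had 4 in control female and 9 in VEDS male, and *Kcnq5* had 3 and 10. *Kcnq3*, a Kv7 gene of neurons, had 0 in control female and 4 in VEDS male, of 9 to 11 fragments, of which 1 lay at the promoter and 1 was 100% masked. *Kcnq3* was one of the members with a peak in the control male list, and that peak fell on the same masked intronic sequence.

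The strongest *Kcnq1* peak (chr7:143296457-143296944, 38 fragments in VEDS male and 17 in control female) lay in an intron within 1 kb of the TSS of *Kcnq1ot1*, an imprinted noncoding RNA. The strongest *Kcnq5* peak, 131 kb from the TSS, had 17 and 30 fragments and carries both the MEF2 and the AP-1 match shown above. The *Kcnq5* promoter had a peak in VEDS male only (17 fragments).

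**Figure D2:**
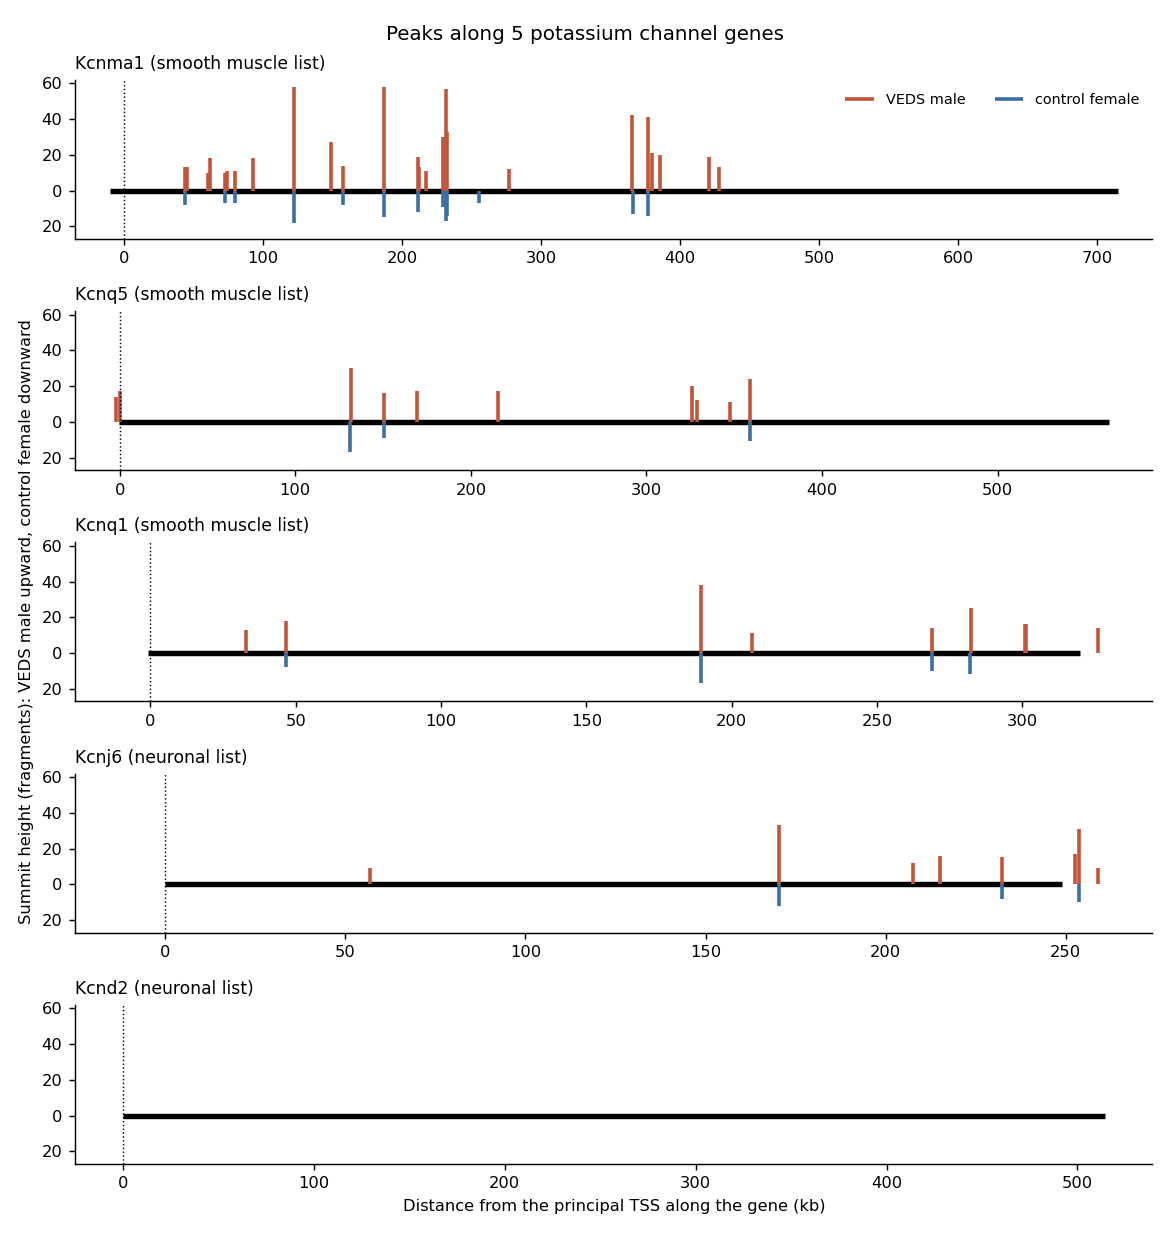
Peaks along *Kcnma1*, *Kcnq5*, *Kcnq1*, *Kcnj6* and *Kcnd2* by distance of the summit from the principal TSS (kb, dotted line at the TSS, black bar the gene), with summit height in fragments upward for VEDS male and downward for control female. *Kcnma1* has 25 and 13 peaks, all past 43.5 kb from the TSS, and *Kcnd2* has none.

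Inward rectifier and ATP-sensitive channels of smooth muscle were open at the promoter. *Kcnj8* (Kir6.1, chr6:142564837-142571614) had a single peak in each long list, at its promoter, with 13 fragments in control female and 35 in VEDS male. *Abcc9*, the sulfonylurea receptor that pairs with it, had 1 peak in control female and 5 in VEDS male, none at the promoter. *Kcnj11* (Kir6.2) and *Abcc8*, the pair known from pancreatic β cells, had 0 peaks in control female and 2 and 3 in VEDS male. *Kcnj11*, counted on the striated muscle list, had a promoter peak of 31 fragments there. *Kcnj2* (Kir2.1) had a single peak in each list, at the promoter, with 16 fragments in control female and 42 in VEDS male (−log10 q 15.8 and 40.6).

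The other smooth muscle channels were open to different degrees. *Kcnk3*, an acid-sensitive two-pore channel, had a promoter peak of 7 fragments in control female and 22 in VEDS male, and 2 intronic peaks in VEDS male. *Kcnk3* was the 1 member of 94 (1.06%) with a CArG match in the 250 bases upstream of its TSS. That share is near the 1.34% of all coding genes.
*Kcnk3* promoter, chr5:30587977-30588066, plus strand, CArG: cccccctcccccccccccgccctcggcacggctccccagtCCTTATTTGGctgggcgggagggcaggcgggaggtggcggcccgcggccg
The match, 153 bases upstream of the TSS, lies within the promoter peak of each long list. Both peaks also lay within 1 kb of a TSS of the predicted gene *Gm9899*.

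*Kcna5* (Kv1.5), *Kcne4*, an auxiliary subunit of Kv7 channels, and *Kcns3*, an electrically silent modifier subunit, had no peak in control female. In VEDS male they had 2, 4 and 2, of 7, 11 to 22 and 11 fragments. None of these peaks ranked among the 21176 strongest of that list, and both *Kcns3* peaks were at the promoter.

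Both endothelial channels had peaks in the long lists. *Kcnn3* (SK3) had a promoter peak of 19 fragments in control female and 40 in VEDS male. *Kcnn4* (IK) had 2 peaks in each, outside the gene and away from the promoter. The shared one lay downstream, with 11 and 29 fragments.

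**Figure D3:**
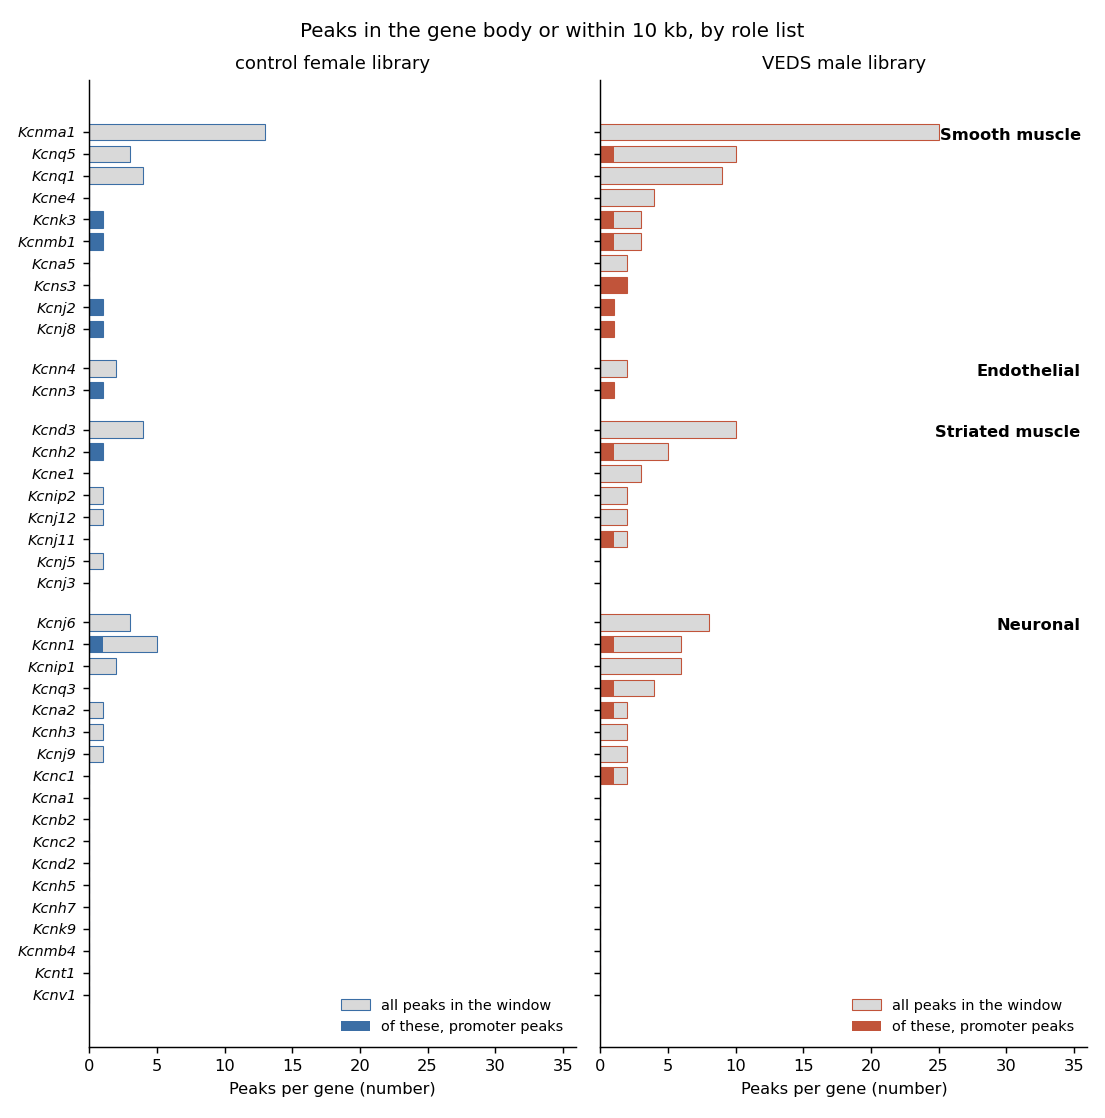
Number of peaks in the gene body or within 10 kb for the named genes of the role lists, left for control female and right for VEDS male. Gray bars count all peaks and colored bars the promoter peaks among them. *Kcnma1* has 13 and 25, and *Kcnj6*, with 3 and 8, has the longest neuronal bar on the right.

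Of the 20 neuronal channels 12 (60%) had no peak in either long list, against 27.7% of all channel genes. Of all coding genes, 69.4% had a peak in VEDS male, 58.8% in control female and 58.5% in both. Among the 12 neuronal channels were *Kcna1*, *Kcnb2*, *Kcnc2*, *Kcnd2*, *Kcnh5*, *Kcnh7*, *Kcnk9*, *Kcnmb4*, *Kcnt1* and *Kcnv1*. They include the fast delayed rectifier *Kcnc2* (Kv3), the sodium-activated *Kcnt1* and the ether-à-go-go relatives *Kcnh5* and *Kcnh7*. *Kcnd2* spans 514 kb and *Kcnh7* 491 kb without a called peak.

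Of the 8 neuronal channels that had a peak, 4 had their highest one at the TSS of another coding gene. The peaks of *Kcnj9* and *Kcnh3* all lay at promoters of *Igsf8* and *Mcrs1*. The highest peak of *Kcnn1* (SK1) lay at *Arrdc2*, and its own promoter had 9 fragments in control female and 23 in VEDS male. *Kcnc1*, a Kv3 channel, had 2 peaks of 10 and 11 fragments in VEDS male only. *Kcna2* (Kv1.2) had a peak in a noncoding exon of 13 and 27 fragments and a promoter peak of 8 in VEDS male.

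*Kcnj6* (GIRK2) had the most peaks of the neuronal list in VEDS male. It had 3 in control female and 8 in VEDS male, none at the promoter, and all 3 control female peaks were shared. The highest, in an intron 170 kb from the TSS, had 12 and 33 fragments.

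Striated muscle channels were mixed. *Kcnd3* (Kv4.3), a transient outward channel of heart, had 4 intronic peaks in control female and 10 in VEDS male. All 4 were shared, the highest with 23 and 44 fragments, and no promoter peak was called. *Kcnj12* (Kir2.2) had 1 and 2 peaks, *Kcne1* had 0 and 3, and *Kcnip2*, whose control female peak lay at *Mgea5*, had 1 and 2. The peak of *Kcnh2* (the cardiac hERG channel) at its internal start had 19 and 52 fragments. *Kcnj5* had 1 peak of 7 fragments in control female only, and *Kcnj3*, its partner in the atrial acetylcholine-gated channel, had none.

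The 52 members on no role list had a peak in both long lists in 21 cases (40.4%) and a promoter peak in both in 3 (5.77%). By family, a peak in both lists was found for 14 of 40 voltage-gated genes, 6 of 8 calcium- or sodium-activated, 8 of 15 inward rectifiers, 5 of 14 two-pore channels and 9 of 17 auxiliary subunits. The share over all coding genes was 58.5%, and the inward rectifiers (53.3%) and auxiliary subunits (52.9%) lay near it. Peaks per 100 kb of gene and flanks picked out 3 of these members. *Kcnab3*, an auxiliary β subunit, had 2 peaks in control female and 4 in VEDS male, among them its own promoter with 16 and 40 fragments, and its highest lay at *Cntrob* and *Trappc1*. *Kcnj15* (Kir4.2) had 3 and 7, the highest with 12 fragments in an intron in control female and 28 downstream of the gene in VEDS male. *Kcnk4*, a two-pore channel, had 3 peaks in control female, all at promoters of *Esrra*, *Bad* or *Gpr137*.

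The 4 members with a peak in the control male list were *Kcnab1*, *Kcnj14*, *Kcnk16* and *Kcnq3*. The peaks of *Kcnab1*, *Kcnk16* and *Kcnq3* were 100% masked, and that of *Kcnj14* (8 fragments, 8.25% masked) lay at *Cyth2*. Without peaks over 50% masked the count in control male was 1.

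Of 12 partner genes of potassium channels and pacemaker channels, 3 (*Abcc9*, *Dpp10* and *Hcn3*) had a peak in both long lists (background 58.5%) and 5 in VEDS male (background 69.4%). None had a promoter peak in both (background 44.7%). *Hcn4*, a pacemaker channel of the heart, had no peak in any library.

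Longer genes offer more sequence for a peak, so density was compared among genes of at least 100 kb, of which there were 2492, with 23 channel genes among them. Peaks in the gene body over 1 kb from any coding TSS were counted. The median density in the VEDS male library was 0.799 peaks per 100 kb over all these genes and 0.273 over the channel genes. Of the channel genes 11 (47.8%) had none, against 33.3% of all these genes. *Kcnma1* had 3.45 per 100 kb in VEDS male and 1.79 in control female, higher than 83.3% and 87.0% of the genes. *Kcnd3* reached 4.51 and 1.80, *Kcnq1* 2.49 and 1.25, and *Kcnq5* 1.42 and 0.532. Of 8 long neuronal genes, 5 (62.5%) had none in VEDS male, where 33.3% of all genes of this length had none. The highest of the 8, *Kcnj6*, had 2.01. In control female 6 of the 8 (75%) had none, where 53.7% of all genes of this length had none and their median was 0.

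**Figure D4:**
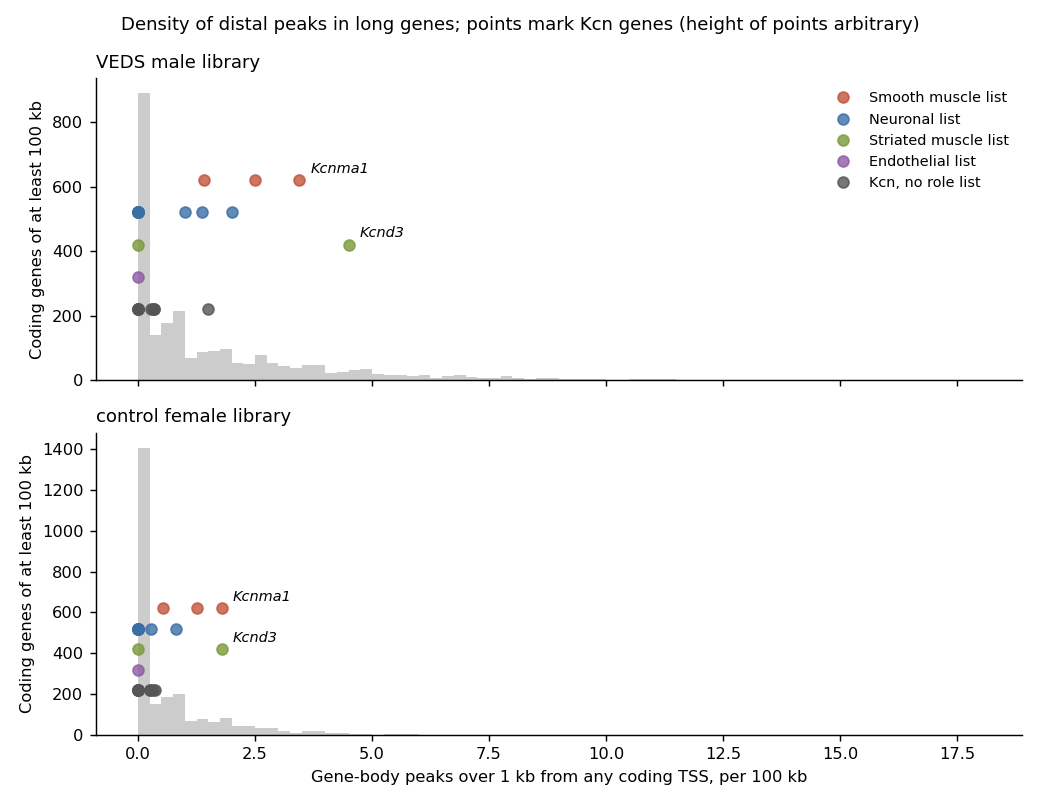
Gene-body peaks over 1 kb from any coding TSS per 100 kb (x axis) for the 2492 coding genes of at least 100 kb (gray histogram, number of genes), in the VEDS male (top) and control female (bottom) libraries, with points for the 23 Kcn genes by role list, whose height carries no value. *Kcnma1* (3.45 and 1.79) and *Kcnd3* (4.51 and 1.80) lie to the right. In VEDS male 5 of 8 neuronal genes and 33.3% of all 2492 genes lie at 0.

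CpG-rich promoters are usually open in many tissues, so promoters were also grouped by CpG content, as the observed over expected number of CpG in the 1000 bases around the principal TSS. The median was 0.57 for all coding genes and 0.52 for the channels, 0.75 for the smooth muscle list and 0.66 for the neuronal list. At a ratio of 0.6 or more, 86.3% of all coding genes had a promoter peak in VEDS male, against 15 of 40 channel genes (37.5%). In both long lists the shares were 73.6% and 5 of 40 (12.5%). Under 0.6, the shares in VEDS male were 27.9% of all coding genes and 14 of 54 channel genes (25.9%).

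The CpG-rich group held 12 neuronal and 7 smooth muscle channels. In VEDS male 2 of the 12 and 4 of the 7 had a promoter peak, and in both lists 0 and 2. The printed promoters are examples and do not stand for the other channel genes. *Kcnmb1* (ratio 0.18) and *Kcnj8* (0.57) had a promoter peak with 1 and 5 CpG in the 150 bases upstream, while *Kcnd2* (0.80) and *Kcnmb4* (1.04) had none with 16 and 22. *Kcnma1* (0.91) had no promoter peak either, and its peaks were all intronic. In contrast, *Kcnk3* (0.80) and *Kcnj2* (0.43) had a promoter peak in both long lists with 23 and 13 CpG upstream. Over all channel genes the median ratio was 0.65 with a promoter peak in VEDS male and 0.47 without one.

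**Figure D5:**
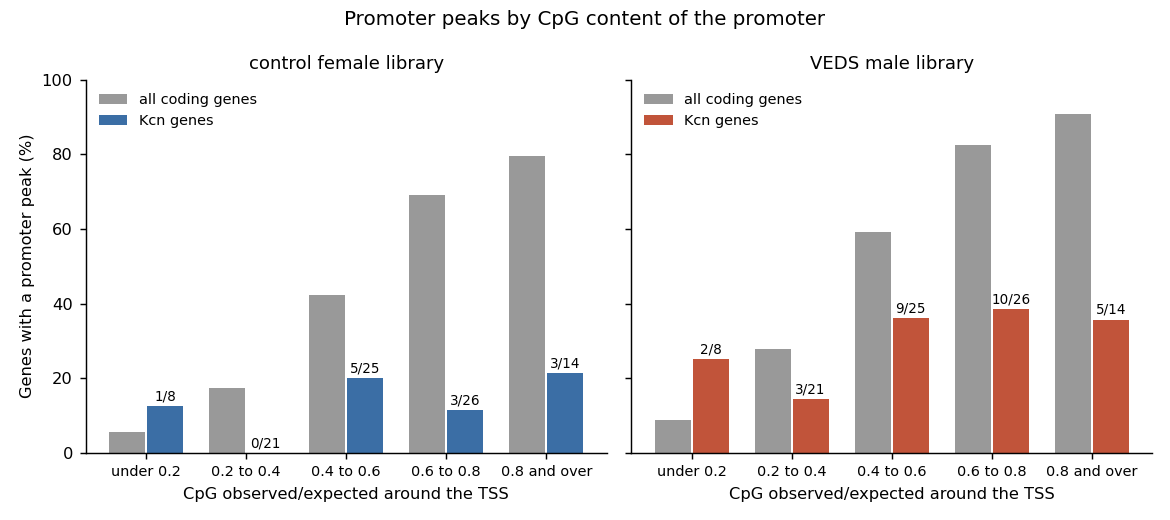
Share of genes (%) with a promoter peak by CpG observed/expected ratio around the TSS, for all coding genes (gray) and Kcn genes (colored, with counts), left for control female and right for VEDS male. The gray bars climb from 8.67% to 90.7% in VEDS male, while the channel genes stay between 14.3% and 38.5%.

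Motif shares at channel peaks lay close to those of all peaks, except for MEF2 in control female. In the VEDS male library an AP-1 match was found in the 300 bases around the summit of 10.5% of the 209 channel peaks (Wilson 95% interval 7.05 to 15.4) and 11.6% of all peaks. For MEF2 the shares were 6.22% (3.67 to 10.3) and 5.79%, for TEAD 16.3% (11.9 to 21.9) and 19.0%, and for CArG 2.87% (1.32 to 6.12) and 3.09%. In the control female library, with 89 channel peaks, MEF2 matches were in 11 of them (12.4%, 7.04 to 20.8) against 5.55% of all peaks. By role list they were in 4 of 34 smooth muscle peaks (11.8%, 4.67 to 26.6), 3 of 13 neuronal and 3 of 8 striated muscle peaks. The other shares there were 8.99% against 11.6% for AP-1, 15.7% against 18.1% for TEAD and 1.12% against 3.02% for CArG. The intervals cover counting error only and take peaks as independent, which peaks of 1 gene and 1 library are not, and a match is not a bound site.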

How the data were processed

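Peak lists of 4 ATAC-seq libraries of mouse aortic nuclei at P60 were used. According to the methods, the authors aligned reads to mm10 (GRCm38), removed duplicates by barcode, corrected for the Tn5 cut site, called narrow peaks with MACS2 and left out ENCODE blacklist regions. Each deposited list belongs to 1 library. The deposited columns are a score, the fold enrichment at the summit (a ratio of fragments to the local background, each with a pseudocount of 1) and −log10 of the p and q values. The summit height, a whole number, was recovered from fold enrichment and −log10 p for 99.3% to 99.9% of peaks (tolerance 0.005 on −log10 p). The procedure and the overlap functions were tested on simulated data.

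Genes came from GENCODE vM21 and sequences from GRCm38.p6. −log10 q grows with depth, so that values printed side by side for both long lists do not compare the lists. A cutoff of 5 or 10 need not be equally strict in each list. MEF2 and CArG matches had to meet the full consensus on either strand. A peak was assigned by an overlap of at least 1 base. The principal TSS is that of the principal transcript, and a promoter peak may lie at any annotated TSS. Members and lists were chosen with earlier results of these data known. The genes named were those of the role lists, the 5 highest members by −log10 q, by number of peaks and by peaks per 100 kb (with at least 3 peaks) in each long list, and members with a peak in a short list. Sequences were those of the strongest shared peak over 1 kb from any TSS with a match in each smooth muscle channel. Members and sequences beyond these, the density of long genes, the CpG groups and the printed promoters were chosen after their values were seen. Some genes are counted but not reported here by name. No test between groups was made. Libraries were grouped by genotype and sex from the sample labels. Alternatives were other windows, thresholds on −log10 q of 5 and 10, equal list sizes, filters on masked peaks and on other genes' TSS, other motif windows and leaving out each library. Python 3.11.15, numpy 2.4.6, pandas 2.3.3, scipy 1.17.1, pysam 0.24.0 and matplotlib 3.10.9 were used.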

Additional observations from a re-analysis of the deposited data

Results flagged for a closer look

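The contrast of VEDS with control ran in opposite directions in the sexes, for the channel genes and for all coding genes alike. Between the female libraries the number of potassium channel genes with a peak in the body or within 10 kb was 44 in control and 0 in VEDS, a difference of -44. Between the male libraries it was 4 in control and 66 in VEDS, a difference of 62. The shares of all coding genes were 58.8% in control and 2.41% in VEDS females, and 3.48% and 69.4% in males. Promoter peaks gave -12 in females (12 in control and 0 in VEDS) and 29 in males (0 in control and 29 in VEDS). For all coding genes the promoter shares were 44.9% and 1.37% in females and 1.34% and 55.5% in males, control first. The difference between the sexes was not tested, since each combination of sex and genotype has 1 library, and it moved with the length of the peak lists, at 21176 and 504 peaks in females and 1236 and 41444 in males.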

How the results depend on the processing

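Of 141 recomputed values 104 stayed within 1.5 times the reported count, or within the interval of the reported motif share, and 37 did not. The 104 include counts that were 0 and stayed 0, which no stricter filter could lower. They also include counts of lists that a setting left unchanged, so that they are no measure of how stable the results were. Gene counts, here and for promoters below, were recomputed for the channel genes alone. A fall under a setting is therefore not set against that of all coding genes. The exception is the filter on the TSS of other coding genes, where the share of all coding genes in both long lists was 43.9%. Counts of genes with a peak in the body or within 10 kb were as follows. At −log10 q of at least 10 they were 27 in control female, 0 in control male and 27 in both long lists, and at 5 the control male count was 2. With every list cut to its 504 strongest peaks they were 4 in control female, 2 in control male, 3 in VEDS male and 2 in both long lists. With the gene body only they were 23 in control female, 2 in control male, 41 in VEDS male and 22 in both. With 50 kb on either side the control male count was 7 and the VEDS female count 2. Without mostly masked peaks the control male count was 1, and without peaks at the TSS of another coding gene the counts were 29 in control female and 27 in both long lists.

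Promoter peaks in both long lists fell from 11 to 7 at −log10 q of at least 5 and to 4 at 10. At 10 the library counts were 4 in control female and 13 in VEDS male. With 504 peaks per list no member had one (0 in control female, 0 in VEDS male and 0 in both). The VEDS male count was 12 once that list was cut to the length of the control female list. Smooth muscle genes with a promoter peak in both lists numbered 3 at −log10 q of at least 5, 1 at 10 and 0 with equal lists of 504, and neuronal genes 0 under all 3 settings. At 10, genes with a peak in the body or within 10 kb in both lists numbered 4 on the smooth muscle and 4 on the neuronal list. In VEDS male alone they numbered 10 and 6.

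Leaving out 1 library of a genotype gave 4 to 44 genes for control and 0 to 66 for VEDS, so that the control female and VEDS male libraries decided both counts (4 without the former and 0 without the latter). In windows of 150 bases the TEAD share was 9.57% in VEDS male and 8.99% in control female, against 11.5% and 10.9% of all peaks in such windows. The CArG share in control female was 0%, against 1.76% of all peaks. Over 1 kb from a TSS, in windows of 300 bases, it was also 0%, against 4.21%. The libraries can be paired by sex, and the differences within sex are given above, but no paired test was made. Depth limits every absence: the lowest channel peak had 5 fragments in control female and 7 in VEDS male, and the total fragments are unknown here.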
